A study of Mus musculus with 4 samples.

Results

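The respiratory chain genes were examined in 2 mouse colorectal cancer lines, CT26 and MC38, infected with lentivirus to knock down Aurora-A, the mitotic kinase encoded by Aurka. Members were chosen by name: symbols that begin with Nduf and a, b, c, s or v, with Uqcr, with Cox and a digit from 4 to 8, or with Atp5, the genes Sdha to Sdhd, and the mitochondrially encoded Nd, Co, Cytb and Atp genes. This rule used no measured value and found 106 of the 51905 genes in the files, 93 of them nuclear and 13 mitochondrial. Complex I had 51, complex II 4, complex III 9, complex IV 23 and complex V, the ATP synthase, 19. The names also brought in 8 complex I assembly factors (Ndufaf1 to Ndufaf8) and the related proteins Atp5s, Atp5sl and Cox7a2l. Atp5s and Atp5sl were counted with complex V and Cox7a2l with complex IV, although none of them is counted as a subunit.

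Each of the 4 conditions had 1 library (CT26 shGFP, CT26 shmaurka-1, MC38 shGFP and MC38 shmaurka-1), with no replicate of any condition. All cells carried a lentivirus with 1 short hairpin RNA, against GFP in the control and against mouse Aurora-A in the knockdown, and all were labelled wild type and of colon origin. Total RNA was taken 48 h after seeding. CT26 cells grew in RPMI-1640 and MC38 cells in high-glucose DMEM, so line and medium cannot be told apart. The labels call CT26 a fibroblast and MC38 an epithelial cell. The summed FPKM of 12 epithelial markers was 42.7 to 43.1 in CT26 and 1.31 to 1.82 in MC38. In CT26 Krt18 (FPKM 33.7 and 37.5) and Krt20 (8.46 and 4.41) carried this sum and each of the other 10 markers was at 0.408 FPKM or less. Vil1 and Esrp1 went the other way, with 0 fragments in both CT26 libraries. In MC38 Vil1 had 38 and 29 and Esrp1 46 and 27, at FPKM of 0.581 or less. Epcam had at most 1 fragment and Cdh1 at most 6 in any library, so these 2 markers were near 0 in both lines, including the one labelled epithelial. For 12 fibroblast markers the sums were 926 to 934 in CT26 and 576 to 582 in MC38. Fn1 (FPKM 397 and 382.5 in CT26, 226.6 and 283.7 in MC38) and Vim (356.9 and 382.6, 291.2 and 241) carried most of them. Col1a2 had 114.4 and 117.9 in CT26 and 11.18 and 11.46 in MC38. Thy1, Fap and Lum were at 1.005 FPKM or less in every library. Pdgfra and Col3a1 were higher in both MC38 libraries than in both CT26 libraries. For 6 leukocyte markers the sums were 1.54 to 1.74 in CT26 and 3.17 to 4.30 in MC38. Itgam has 2 entries and both are summed, Ptprc was at 3 fragments or fewer and Cd3e at 0. Libraries held 22207768 to 23752268 fragments, that is, read pairs recovered from the deposited values. FPKM corrects fragments for transcript length and library size and is the scale for levels of different genes, whereas fragments, which grow with length, show the depth behind a value. Aurka counted 5724 and 1093 fragments (control, then knockdown) in CT26 and 2300 and 413 in MC38, log2 differences of -2.27 and -2.45, so the targeted gene was lower in both knockdown libraries.

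The respiratory chain passes electrons from NADH (complex I) or succinate (complex II) through complex III to oxygen at complex IV, and the protons pumped on the way drive the ATP synthase. Most subunits are made from nuclear genes and imported, whereas mitochondrial DNA encodes core subunits of every complex except complex II. Mitochondrial transcription yields long precursors that are cut into the separate messenger RNAs.

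The 13 mitochondrially encoded genes fell into groups by read count that followed a stretch of sequence the nuclear genome shares. In GRCm39, positions 6394 to 11042 of the mitochondrial genome (4649 of its 16299 bases) recur at chr1:24650616-24655265 on the minus strand, with 1 substitution and 1 additional base in the copy. The substitution is T9461C by mitochondrial position, the mitochondrial base first, and T3C counted from 1 at the first base of mt-Nd3. Both versions are shown because this base, in capitals, is all that separates mt-Nd3 from its nuclear copy. They cover MT:9429-9518 (plus strand) and chr1:24652141-24652230 (minus strand) of GRCm39.

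mt-Nd3: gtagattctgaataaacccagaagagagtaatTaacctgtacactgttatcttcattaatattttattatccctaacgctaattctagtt
nuclear copy of mt-Nd3: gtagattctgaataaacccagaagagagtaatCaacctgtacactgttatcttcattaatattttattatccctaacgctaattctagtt

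One edge of the shared stretch lies inside mt-Co1. The next sequences run across it, from MT:6364-6423 (plus strand) and chr1:24655236-24655295 (minus strand), with differing bases in capitals, and show where unlike sequence gives way to an exact match.

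mt-Co1: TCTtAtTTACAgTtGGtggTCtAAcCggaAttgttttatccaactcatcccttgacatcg
nuclear copy of mt-Co1: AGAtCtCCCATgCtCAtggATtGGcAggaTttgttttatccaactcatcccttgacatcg

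The 6 genes wholly inside the stretch, mt-Co2, mt-Atp8, mt-Atp6, mt-Co3, mt-Nd3 and mt-Nd4l, had 9 to 347 fragments in a library, and 99% to 100% of their 50-base windows occur elsewhere in GRCm39. The other 7, mt-Nd1, mt-Nd2, mt-Co1, mt-Nd4, mt-Nd5, mt-Nd6 and mt-Cytb, had 1302 to 214118, with at most 62.2% of windows elsewhere, and held 99.8% of the mitochondrial members' fragments. By FPKM the ranges were 5.16 to 63.4 and 319 to 8858, with no overlap. How reads that fit both places were counted is not given in the sources used here, and its part in the low counts was not tested.

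**Figure D1:**
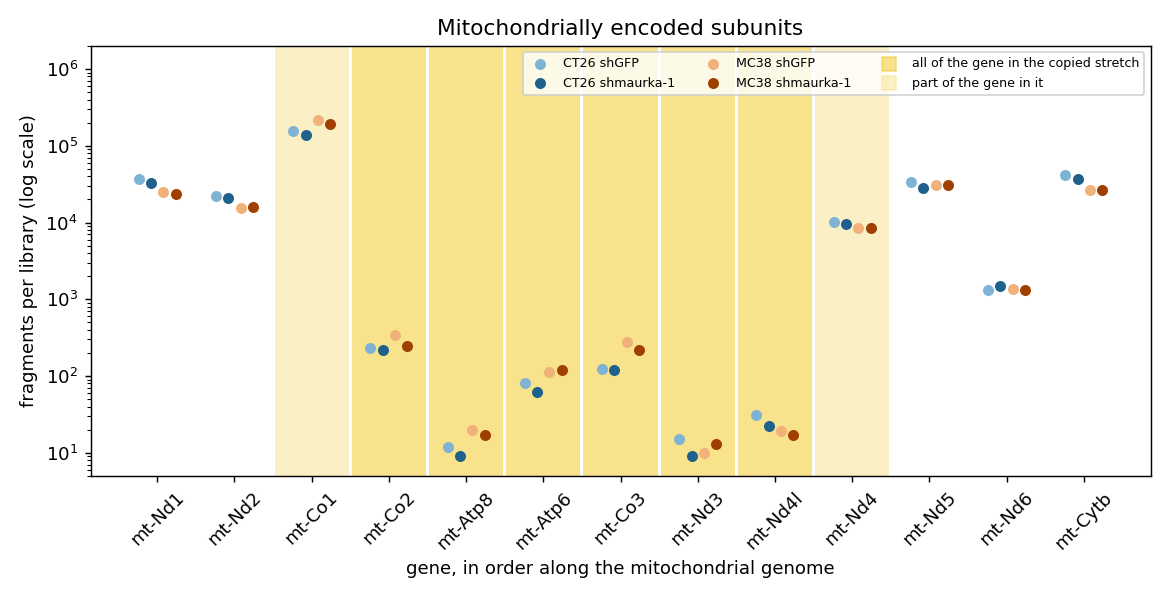
Fragments per library (log scale) for the 13 mitochondrially encoded genes in genome order, with 1 point for each of the 4 libraries. Genes wholly inside the stretch shared with chromosome 1 (dark shading) had 9 to 347 fragments, and those partly inside it (light shading) or outside it had 1302 to 214118.

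Among the well counted mitochondrial genes mt-Co1, the catalytic subunit of cytochrome c oxidase, was highest by FPKM, at 7410 to 8858. It counted 155874 and 138292 fragments (control, then knockdown) in CT26 and 214118 and 189682 in MC38, or 51.3% to 66.5% of the mitochondrial members' fragments, with both MC38 libraries above both CT26 libraries. On the FPKM scale mt-Nd1 followed with a mean of 2620, then mt-Cytb with 1970, mt-Nd2 with 1702, mt-Nd5 with 1154, mt-Nd4 with 656 and mt-Nd6 with 375. mt-Nd6 is encoded on the other strand and shares a locus with mt-Nd5 in the files. The kit kept strand, but whether counting used it is not given in the sources used here. Mitochondrial members held 1.27% and 1.22% of all fragments in CT26 (control, then knockdown) and 1.41% and 1.30% in MC38. Nuclear members held 0.868% and 0.800% in CT26 and 0.899% and 0.897% in MC38. As shares of the summed FPKM, which allow for length, the values were more than 2 times as high, at 3.29%, 3.12%, 3.52% and 3.22% for mitochondrial members in the same order and between 1.91% and 2.22% for nuclear members. The nuclear shares on both scales include Cox4i1, listed at 0 in both CT26 libraries and counted at 8238 and 8449 fragments in MC38. They are therefore not compared between the lines.

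A filter of a mean of 10 counts in each line was passed by 97 of the 106 members and by 11928 genes in all. Cox4i1, Cox4i2, Cox6b2, Cox7a1, Cox7b2, Cox8b, Cox8c, Ndufa4l2 and Ndufs3 did not pass. Members that passed had a median of 1126 fragments per library and all tested genes 838. Within a line, values are log2 differences of knockdown minus control with a 95% exact conditional binomial interval. With 1 library a condition there is no test, and the interval covers counting error only. In bulk RNA, fewer cells of a type and less RNA per cell cannot be told apart.

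In CT26 the nuclear respiratory chain genes were slightly lower in the knockdown library, a small shift shared by many genes. The median over the 97 members was -0.12, beside -0.005 for all genes tested. On FPKM it was smaller, -0.068 with a pseudocount of 1 and -0.069 with 0.1, beside 0.015 and 0.017 for all genes. The value was below 0 for 76 of 97, beside 50.8% of all genes. The interval lay below no change for 42 members (43.3%), beside 21.1%, and above it for 9 (9.28%), beside 22.1%. Nuclear members had a median of -0.12, with 68 of 84 below 0, and mitochondrial members -0.03, with 8 of 13 below 0. Past the fold thresholds of the study lay 2 members over 1.5-fold (3.2% of all genes) and 0 under 0.6-fold (2.57%).

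MC38 did not show that shift. The median over members was 0.03, beside -0.001 for all genes tested, and the value was above 0 for 56 of 97, beside 49.9%. The interval lay above no change for 27 members (27.8%), beside 22.7%, and below it for 14 (14.4%), beside 22.3%. Nuclear members had a median of 0.05 and mitochondrial members -0.01. No member was over 1.5-fold (2.47% of all genes) or under 0.6-fold (1.03%).

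**Figure D2:**
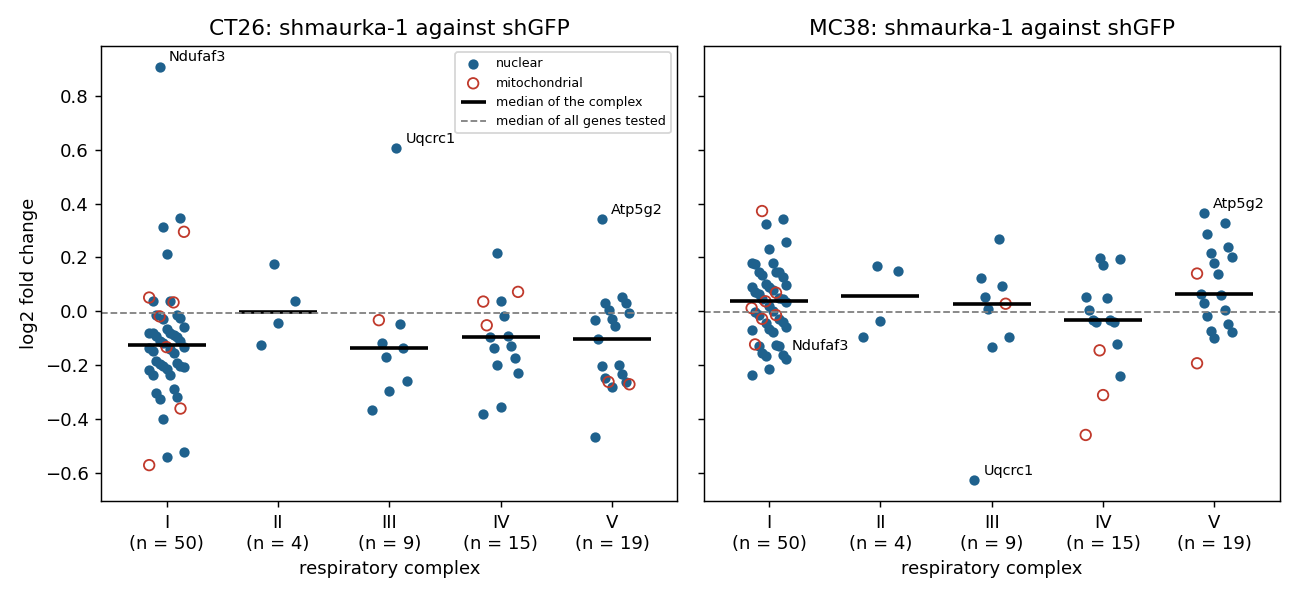
Log2 fold change of each member that passed the filter, knockdown minus control, by complex in CT26 (left) and MC38 (right). Filled points are nuclear and open points mitochondrial genes, bars are complex medians and the dashed line is the median of all genes tested. In CT26 the bars of complexes I, III, IV and V lie at -0.12, -0.14, -0.10 and -0.10, and in MC38 the bars lie between -0.03 and 0.07.

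Taking both lines together, 48 members were lower in CT26 and higher in MC38, beside 21.9% of all genes. A further 28 were lower in both (28.9% of all genes), 8 higher in both (28%) and 13 higher in CT26 and lower in MC38 (21.2%). Counting only intervals that left out no change in both lines, 14 members were lower in CT26 and higher in MC38, beside 3.6% of all genes. They were Ndufa1, Ndufa2, Ndufa5, Ndufa10, Ndufa12, Ndufaf2, Ndufb8, Ndufb9, Ndufv3, Sdha, Uqcrq, Cox8a, mt-Cytb and mt-Nd5. On FPKM Ndufa5 had the other sign in both lines (0.051 in CT26 and -0.151 in MC38) and Ndufa10 in CT26 (0.073). The rest of this list kept both signs on that scale. By the same intervals 6 members were lower in both lines (7.48% of all genes), 4 higher in both (8.59%) and 1 higher in CT26 and lower in MC38 (3.84%). Whether the lines differ in their response was not tested, since each had 1 pair of libraries.

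**Figure D3:**
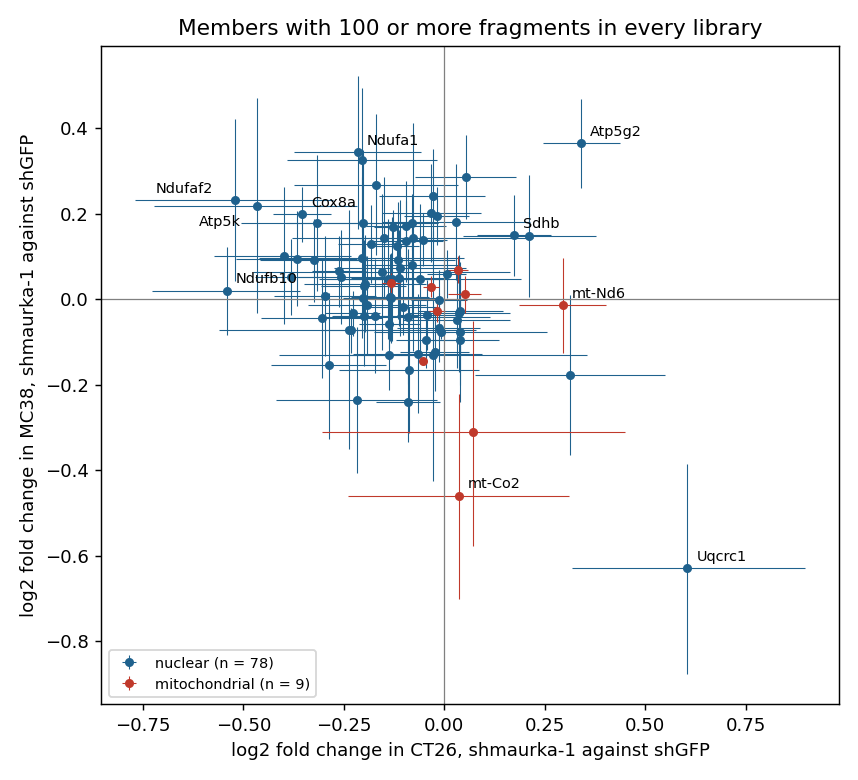
Log2 fold change in CT26 (x) and MC38 (y) for the 87 members with 100 or more fragments in every library, with 95% counting intervals as bars. Most points lie left of 0 on the CT26 axis and on both sides of 0 on the MC38 axis. Atp5g2 is high on both axes (0.34 and 0.36) and Uqcrc1 has opposite signs (0.61 and -0.63).

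A change shared by the lines was looked for in a fit with terms for line and knockdown, by edgeR's quasi-likelihood test with Benjamini-Hochberg adjustment over all 11928 genes. It called 333 genes (2.79%) and 1 member. That member was Atp5g2 (chr15:102662864-102672352, GRCm38), 1 of 3 genes for the c subunit that forms the rotor ring of the ATP synthase. Atp5g2 counted 1623 and 1891 fragments in CT26 (control, then knockdown) and 1364 and 1720 in MC38, higher in the knockdown library of either line. Its common log2 change was 0.35 ± 0.11 (SE, adjusted p = 0.0492 in edgeR). No other member had an unadjusted p under 0.05 in that test, beside 1469 of all 11928 genes. The call was lost under 7 of 9 other settings, with adjusted p of 0.0568 to 1 (edgeR, DESeq2 or limma). Of its windows 88.4% occur elsewhere in GRCm39 and its locus in the files holds 2 genes, so reads of near-identical copies may be counted here.

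The other c subunit genes differed. Atp5g1 counted 1055 and 1007 fragments in CT26 and 1577 and 1883 in MC38 (0.05 and 0.29), with 84.4% of windows elsewhere. Atp5g3 counted 4109 and 3154 in CT26 (-0.26, interval -0.33 to -0.19) and 2313 and 2370 in MC38 (0.07, interval -0.02 to 0.15), with 0% of windows elsewhere. The gene with sequence of its own was thus lower in CT26, where Atp5g2 was higher.

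Complex I, which oxidizes NADH, had 50 tested members. Its 35 nuclear subunits had a median of -0.14 in CT26, with 32 of 35 below 0, and 0.04 in MC38, with 20 of 35 above 0. In CT26 the interval lay below no change for 18 of them and above it for 0. Ndufb10, an accessory subunit of the membrane arm, had the lowest value among them in CT26, with 635 and 401 fragments (-0.54, interval -0.73 to -0.36), and 1553 and 1543 in MC38 (0.02). Ndufb9, the nuclear subunit with the highest FPKM, counted 2690 and 2180 in CT26 (-0.18, interval -0.27 to -0.10) and 1874 and 2008 in MC38 (0.13, interval 0.04 to 0.22). Ndufa2, the next highest, counted 1361 and 1129 in CT26 and 775 and 839 in MC38 (-0.15 and 0.14).

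Core subunits, which carry the catalytic and electron-carrying parts, lay nearer to 0 than accessory ones in CT26. Over all complexes the 19 nuclear core subunits tested had a median of -0.04, with 13 below 0, and the 53 accessory subunits -0.15, with 47 below 0. In MC38 the medians were -0.001 and 0.05. The core subunits were also counted more deeply, with a median of 1993 fragments per library beside 1033. The contrast by role was not tested. Ndufv1, which binds NADH, had -0.01 in CT26 and -0.07 in MC38. Ndufs1, the largest iron-sulfur subunit, had -0.01 and -0.001.

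The complex I assembly factors, which build the enzyme but do not remain in it, varied in sign. Ndufaf3 counted 21 and 37 fragments in CT26, a 1.88-fold value with a wide log2 interval from 0.13 to 1.78, and 151 and 132 in MC38. Ndufaf2 counted 353 and 226 in CT26 (-0.52, interval -0.77 to -0.28) and 432 and 497 in MC38 (0.23, interval 0.04 to 0.42). Ndufaf5 counted 280 and 320 in CT26 (0.31, interval 0.08 to 0.55) and 510 and 442 in MC38 (-0.18, interval -0.36 to 0.009). The 8 factors had medians of -0.04 and 0.06.

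Complex II, succinate dehydrogenase, also works in the tricarboxylic acid cycle and is wholly nuclear encoded. Its 4 subunits had medians of -0.001 in CT26 and 0.06 in MC38. Sdhb, the iron-sulfur subunit, was higher in either knockdown library, with 1892 and 1963 fragments in CT26 (0.17, interval 0.08 to 0.27) and 1779 and 1933 in MC38 (0.15, interval 0.06 to 0.24), but was not called in common (adjusted p = 0.603 in edgeR). Sdha, the flavoprotein, counted 8158 and 6869 in CT26 and 9950 and 10962 in MC38. Sdhd, a membrane anchor, counted 3068 and 2741 in CT26 and 2455 and 2344 in MC38.

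Complex III, which passes electrons from ubiquinol to cytochrome c, had 9 tested members with medians of -0.14 in CT26, where 8 were below 0, and 0.03 in MC38. The exception in CT26 was Uqcrc1 (chr9:108936633-108949623, GRCm38), known as core protein 1 and counted here as accessory. It counted 172 and 241 fragments in CT26 (0.61, interval 0.32 to 0.90) and 357 and 226 in MC38 (-0.63, interval -0.88 to -0.39). These were a 1.52-fold value in CT26 and the lowest value of any member in MC38. Its partner Uqcrc2 had -0.05 and -0.10. Uqcrc1 also stood apart by level, with a mean FPKM of 6.46 beside 81.1 to 327 for the other nuclear members of complex III.

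Uqcrq, the nuclear subunit of complex III with the highest FPKM, counted 5609 and 4752 fragments in CT26 and 6334 and 6761 in MC38 (-0.12 and 0.12). Uqcrb counted 1583 and 1218 in CT26 and 1346 and 1367 in MC38, but 58.7% of its windows recur elsewhere. The Rieske iron-sulfur protein Uqcrfs1 was lower in both knockdown libraries, at -0.14, interval -0.24 to -0.04 in CT26 and -0.13, interval -0.21 to -0.05 in MC38. mt-Cytb counted 41646 and 37447 in CT26 and 26223 and 26205 in MC38 (-0.03 and 0.03).

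Complex IV, cytochrome c oxidase, had 15 tested members, with medians of -0.10 in CT26 and -0.03 in MC38. Cox8a, a small subunit and the nuclear one with the highest FPKM, counted 3805 and 2738 fragments in CT26 (-0.35, interval -0.43 to -0.28) and 3611 and 4059 in MC38 (0.20, interval 0.13 to 0.26). Cox5b had the lowest value of the complex in CT26, with 2542 and 1794 (-0.38, interval -0.47 to -0.29), and 1994 and 2025 in MC38, though 38.2% of its windows recur elsewhere. Cox6a1 counted 4010 and 3148 in CT26 and 5749 and 5505 in MC38. Ndufa4, first described with complex I but a subunit of complex IV, was lower in both knockdown libraries, with 2737 and 2365 in CT26 and 2122 and 1760 in MC38.

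The mitochondrially encoded mt-Co1 differed by -0.05, interval -0.06 to -0.04 in CT26 and by -0.15, interval -0.15 to -0.14 in MC38. Its intervals are narrow because of its depth and hold no error between cultures. mt-Co2 counted 229 and 216 in CT26 and 347 and 247 in MC38 (-0.46, interval -0.70 to -0.22), and mt-Co3 122 and 118 in CT26 and 275 and 217 in MC38 (-0.31, interval -0.58 to -0.05 in MC38). Both lie in the stretch shared with chromosome 1.

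Complex V had 19 tested members with medians of -0.10 in CT26 and 0.07 in MC38. The catalytic beta subunit Atp5b was the nuclear member with the highest mean FPKM, 1774. It counted 53928 and 49369 fragments in CT26 (-0.007, interval -0.02 to 0.01) and 48942 and 45508 in MC38 (-0.08, interval -0.09 to -0.06). In MC38 its FPKM was 1480 and 1524, a log2 change of 0.04 with the other sign, and its locus in the files holds 4 genes. Its partner alpha, Atp5a1, counted 23852 and 19068 in CT26 (-0.20, interval -0.23 to -0.18) and 13728 and 13475 in MC38 (0.003, interval -0.03 to 0.04). The intervals of the pair did not overlap in CT26. Atp5k, a small membrane subunit, counted 328 and 218 in CT26 (-0.47, interval -0.72 to -0.22) and 249 and 284 in MC38.

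The other mitochondrial genes inside the shared stretch had few fragments. In CT26 control and knockdown, then MC38 control and knockdown, mt-Nd3 counted 15, 9, 10 and 13, mt-Atp8 12, 9, 20 and 17, mt-Nd4l 31, 22, 19 and 17 and mt-Atp6 81, 62, 112 and 121. Their intervals within a line all held no change, so no difference was detectable at this depth. In the same order mt-Nd1 counted 36448, 33077, 24812 and 23851, mt-Nd2 22261, 20946, 15427 and 15854, mt-Nd4 10116, 9636, 8607 and 8502 and mt-Nd5 33880, 28414, 30587 and 30748. mt-Nd6 counted 1302 and 1469 in CT26 (0.30, interval 0.19 to 0.40) and 1348 and 1308 in MC38. Within either line the 7 well counted genes lay between -0.15 and 0.30.

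The lines themselves differed at most chain genes, in both directions. The fit above called 66 of 97 members (68.0%) for line, beside 73.3% of all genes, so the share of members was near the background. For line, the control and knockdown libraries of a line were its only replicates. The SE and p-values therefore do not measure the spread between cultures of 1 condition. They also rest on a spread pooled over genes and not on that of each gene. Higher in MC38 were 32 (36.7% of all genes) and higher in CT26 34 (36.6%). The median size of the difference, without its sign, was 0.42 for members and 0.66 for all genes tested on the log2 scale, and 7 members differed by more than 1. The split depends on the scaling: with total counts in place of TMM 45 members were called higher in MC38 and 18 higher in CT26, beside 5745 and 3129 of all genes, and with no filter 23 and 35 members, beside 5981 and 5366 of all genes. No called member changed sign under the other fits.

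**Figure D4:**
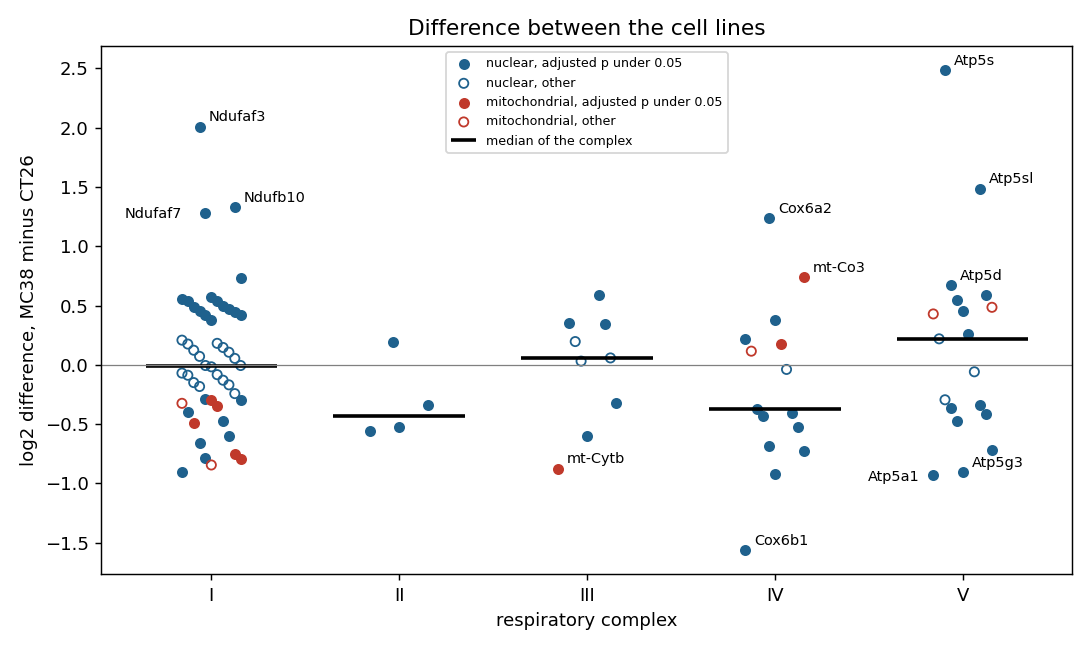
Log2 difference of MC38 minus CT26 for each tested member by complex, from the edgeR fit over all 4 libraries. Filled points have an adjusted p under 0.05, blue is nuclear and red mitochondrial, and bars are complex medians. Cox6b1 is lowest at -1.56 and Atp5s highest at 2.49.

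Cox6b1 (chr7:30616861-30626151, GRCm38), a small subunit on the intermembrane side of complex IV, had the largest difference toward CT26. It counted 3214 and 2571 fragments in CT26 and 1212 and 1156 in MC38, and was 2.96-fold higher in CT26 (log2 difference -1.56 ± 0.11 SE, adjusted p = 1.63e-45 in edgeR). In the same edgeR fit Atp5a1 followed (-0.93 ± 0.09, adjusted p = 6.43e-25), then Cox6c (-0.92 ± 0.12, 4.03e-14), Atp5g3 (-0.91 ± 0.10, 5.66e-18), Ndufa2 (-0.90 ± 0.12, 8.68e-13) and mt-Cytb (-0.88 ± 0.09, 1.58e-23). Cox6c, another small subunit of complex IV, counted 1592 and 1300 in CT26 and 947 and 903 in MC38, with 22.2% of windows elsewhere. For these 6 genes both CT26 libraries were above both MC38 libraries by FPKM.

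The members furthest toward MC38 had few fragments. Atp5s, a related protein counted with complex V, had 20 and 15 in CT26 and 108 and 133 in MC38 (2.49 ± 0.32 SE, adjusted p = 4.69e-14 in edgeR). Ndufaf3 (2.01 ± 0.29, 7.80e-12) and Atp5sl (1.49 ± 0.21, 1.40e-12), with 97 and 75 in CT26 and 306 and 280 in MC38 fragments, were next in that fit. Ndufb10 had the largest difference of a broadly used subunit (1.33 ± 0.13, adjusted p = 9.12e-25 in edgeR). Its difference was 1.05 between the control libraries and 1.61 between the knockdown libraries. Ndufaf7, with 184 and 152 in CT26 and 491 and 503 in MC38, had 1.28 ± 0.17 (5.44e-14), and Cox6a2, with 86 and 92 in CT26 and 269 and 242 in MC38, had 1.24 ± 0.21 (9.05e-09). Cox6a2 lies in a locus of 6 genes in the files. For these 6 genes both MC38 libraries were above both CT26 libraries by FPKM.

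Calls by role are to be read against 73.3% of all genes called, 36.7% higher in MC38 and 36.6% higher in CT26. By role, 6 of the 8 complex I assembly factors were called, all higher in MC38, with a median of 0.45. Of the 85 core and accessory subunits tested, which leave out the tissue form Cox6a2, 34 were called higher in CT26 and 22 higher in MC38. In complex II, Sdhb, Sdhc and Sdhd were higher in CT26 and Sdha higher in MC38 (-0.34, -0.53, -0.56 and 0.20). In complex IV 13 of 15 were called, 8 of them higher in CT26. In the head and stalk of complex V the alpha, beta and gamma subunits were higher in CT26 (Atp5a1 -0.93, Atp5b -0.41, Atp5c1 -0.36) and the delta and epsilon subunits higher in MC38 (Atp5d 0.67, Atp5e 0.59).

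All 7 well counted mitochondrial genes were called for line. Higher in CT26 were mt-Cytb (-0.88), mt-Nd1 (-0.80), mt-Nd2 (-0.75), mt-Nd4 (-0.49), mt-Nd6 (-0.34) and mt-Nd5 (-0.30), whereas mt-Co1 was higher in MC38 (0.17 ± 0.08 SE, adjusted p = 0.0408 in edgeR). Windows that occur elsewhere in GRCm39 make up 51.1% of those of mt-Co1 and 62.2% of those of mt-Nd4. Of the 6 genes in the stretch shared with chromosome 1, mt-Co3 was also called, higher in MC38 (0.74 ± 0.20 SE, adjusted p = 3.98e-04 in edgeR). Of the mitochondrial ribosomal RNAs, mt-Rnr1 differed by 1.00 and mt-Rnr2 by -0.001. Total RNA was labelled, and how ribosomal RNA was removed is not given in the sources used here.

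Several subunits have forms with different tissue patterns, and here the broadly used form was the abundant one. Cox6a1 had FPKM of 337 to 445 and Cox6a2, the heart and skeletal muscle form, 7.13 to 19.0. Cox7a2 had 58.6 to 102 and Cox7a1, also a muscle form, at most 0.772. Cox8a had 373 to 463 and Cox8b at most 0.843. Cox8c, a testis form, had 0 fragments in every library, which allows up to 3, Cox6b2, another testis form, at most 1, and Cox4i2, the lung form, at most 2. Ndufa4l2, known to be induced by low oxygen, counted 4 and 12 in CT26 and 5 and 10 in MC38, and its FPKM was at most 0.675 beside 146 to 267 for Ndufa4. Cox7a2l, a factor of supercomplex assembly, had FPKM of 154 to 186.

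Cox7b2 counted 0 and 0 fragments in CT26 and 25 and 25 in MC38. Against a floor of 3 fragments over the CT26 pair it was at least 13.7-fold higher in MC38. Its relative Cox7b had FPKM of 111 to 250. In MC38 Cox7b counted 1424 and 1572 fragments (0.17) while its FPKM was 111 and 179, so the log2 change differed by 0.53 between the deposited scales.

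**Figure D5:**
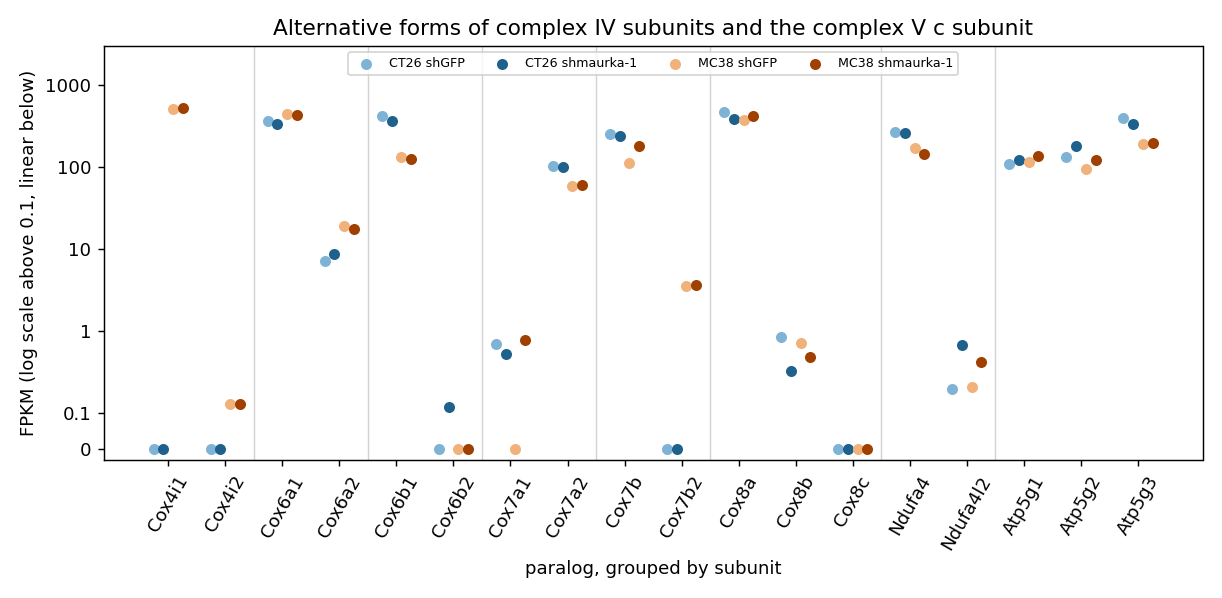
FPKM in each of the 4 libraries for alternative forms of complex IV subunits and for the 3 genes of the complex V c subunit, on a log scale above 0.1 and linear below. Cox6a1, Cox6b1, Cox7a2, Cox7b, Cox8a and Ndufa4 lie above 50 in every library and the restricted forms below 20, while Cox4i1 is listed at 0 in CT26.

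Cox4i1, the usual form of subunit IV, is listed at 0 in both CT26 libraries and counted 8238 and 8449 fragments in MC38. In the files it belongs to a locus at chr8:119910360-124345724 (GRCm38) that joins 210 genes, all of them listed at 0 in both CT26 libraries. In MC38 120 and 119 of them are at 0 and 79 have 10 or more fragments in both libraries. Ndufs3, a core subunit of complex I, counted 3, 1, 0 and 2 in CT26 control and knockdown and MC38 control and knockdown, and its locus of 4 genes held at most 6 fragments in a library. These values are reported as listed and not as levels.

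Genes around the chain were read from lists of related function. The 80 tested mitochondrial ribosomal proteins, which make the mitochondrially encoded subunits, had medians of -0.07 in CT26 (53 below 0) and 0.09 in MC38 (59 above 0). The 73 cytosolic ribosomal proteins had 0.05 and 0.07. Genes were also sorted by the length of their canonical transcript. Up to 800 bases, 36 members had medians of -0.20 and 0.03, and 777 other genes -0.01 and 0.09. From there to 1500 bases, 25 members had -0.07 and 0.03, and 1315 other genes -0.03 and 0.06. Above 1500 bases, 36 members had -0.09 and 0.04, and 9672 other genes -0.001 and -0.02. In CT26 the members' median was thus the lower one in each range. In MC38 it was the lower one in the shorter ranges and the higher one in the longest. The canonical transcript need not be the one expressed. In CT26 shGFP Ndufb9 (4197 bases) had 2690 fragments at FPKM 247.5, and Cox5b (900 bases) 2542 at 170.8. The longest range therefore also holds genes that FPKM treats as short, and the ranges are an incomplete control for length.

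The common test called 2 of 18 genes of mitochondrial DNA replication and transcription, both higher with knockdown. Tfb2m, a factor of the mitochondrial transcription start complex, counted 456 and 580 fragments in CT26 and 508 and 739 in MC38 (0.47 and 0.57, adjusted p = 0.0128 in edgeR). Mgme1, a nuclease that maintains mitochondrial DNA, counted 765 and 907 in CT26 and 1698 and 2242 in MC38 (0.37 and 0.43, adjusted p = 0.0269 in edgeR), in a locus of 5 genes. Lrpprc, which stabilizes mitochondrial messenger RNAs, had 0.24 and 0.21 (adjusted p = 0.230 in edgeR).

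Of 17 tricarboxylic acid cycle genes 1 was called in common, Suclg1, the alpha subunit of succinyl-CoA ligase, with 793 and 1379 fragments in CT26 and 1891 and 2226 in MC38 (0.92 and 0.27, adjusted p = 6.29e-05 in edgeR). Of the cytosolic ribosomal proteins Rpl7a was called higher (0.15 and 0.53) and Rpl17 lower (-0.40 and -0.63), each in a locus of 4 genes. In the common test 1469 of all 11928 genes had an unadjusted p under 0.05. The counts in brackets that follow are to be read against that share. The edgeR common test called 0 of the 80 mitochondrial ribosomal proteins (5 at an unadjusted p under 0.05), 0 of 22 complex IV assembly factors (2), 0 of 12 regulators of respiratory genes (3), 0 of 12 ubiquinone synthesis genes (2) and 0 of 2 mitochondrial ribosomal RNAs (1). It also called 0 of 10 further complex I assembly factors, 0 of 4 for complex II, 0 of 6 for complex III, 0 of 4 for complex V, 0 of 6 ADP/ATP carriers and porins and 0 of the pair Cyc1 and Cycs, with 0 at an unadjusted p under 0.05 in each.

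Between the lines, assembly factors outside the name rule were called higher in MC38 for 6 of 10 of complex I, 3 of 4 of complex II, 5 of 6 of complex III and 3 of 4 of complex V, beside 36.7% of all genes, and higher in CT26 for 2, 1, 0 and 0 of them, beside 36.6%. For complex IV 10 of 22 were called higher in MC38 and 8 higher in CT26. The ADP/ATP carriers, which exchange the product of the ATP synthase across the inner membrane, went opposite ways. Slc25a4 was higher in MC38, with 4238 and 4096 fragments in CT26 and 13294 and 13797 in MC38 (1.42), and Slc25a5 higher in CT26, with 16127 and 15626 in CT26 and 9029 and 9150 in MC38 (-1.09). Cycs, cytochrome c, was higher in CT26 (-0.73).

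RefSeq promoters (GRCm38.p6, 250 bases before and 50 after the start) were matched for 77 of the 93 nuclear members. The NRF1 motif (GCGCA, any base, GCGC) was present on either strand in 23.4% of them, beside 4.79% of all 27020 promoters and 11.6% of those of tested genes. CCGGAAG, bound by ETS factors such as GABP, was in 22.1%, beside 9.12% and 20.2%. AAGATGGC, the YY1 motif, was in 14.3%, beside 2.88% and 5.26%, and TATAAA in 9.09%, beside 14.2% and 6.59%. No searched motif contains another. In CT26 the 18 tested members with the NRF1 motif had a median of -0.11 and the 54 without it -0.13, and in MC38 0.06 and 0.05. For the ETS motif (16 with, 56 without) the medians were -0.20 and -0.11 in CT26 and 0.04 and 0.05 in MC38. For YY1 (11 with, 61 without) they were -0.09 and -0.13 in CT26 and -0.05 and 0.05 in MC38, and for TATAAA (5 with, 67 without) -0.20 and -0.12 in CT26 and -0.07 and 0.06 in MC38. These are descriptions without a test.

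Promoter sequence is shown for Cox6b1, the member furthest toward CT26, for Cox8a, lower in CT26 and higher in MC38, and for Uqcrc1, with the opposite signs, with searched motifs in capitals. The stretches are chr7:30626132-30626264 (minus strand), chr19:7217617-7217766 (minus strand) and chr9:108936498-108936647 (plus strand) of GRCm38.p6. The stretch of Cox6b1 holds an ETS motif on the other strand. Those printed for Cox8a and Uqcrc1 hold 0 of the 4 motifs, although the whole 300-base window of Cox8a holds an ETS motif and that of Uqcrc1 an NRF1 motif.

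Cox6b1: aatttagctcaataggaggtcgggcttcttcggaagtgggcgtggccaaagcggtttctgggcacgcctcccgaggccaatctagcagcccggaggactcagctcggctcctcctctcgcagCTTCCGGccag
Cox8a: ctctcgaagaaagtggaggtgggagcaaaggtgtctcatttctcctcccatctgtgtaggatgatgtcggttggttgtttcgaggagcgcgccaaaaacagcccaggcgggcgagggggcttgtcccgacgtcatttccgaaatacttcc
Uqcrc1: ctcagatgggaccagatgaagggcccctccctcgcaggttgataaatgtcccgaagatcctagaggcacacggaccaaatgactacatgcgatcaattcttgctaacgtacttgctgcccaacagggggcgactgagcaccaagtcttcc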

How the data were processed

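RNA-seq was analysed for the 4 libraries described above, grouped by GEO's labels. For every gene and library the authors deposited FPKM and an estimated count. Their processing notes name Trimmomatic 0.36, HISAT2, Cuffdiff, Cufflinks 2.2.1 and GRCm39. Among genes alone at their locus, coordinates overlapped the namesake gene in GRCm38.p6 for 99.7% of 20047 and in GRCm39 for 8.92% of 26867, so file coordinates are given as GRCm38. Estimated counts are not whole. In each library 97.0% to 97.7% of values above 0 were whole multiples (tolerance 0.05) of a step of 0.885 to 1.17, and dividing by that step gave the fragments. Depth bounds counting error only, and reads carried no molecular identifiers.

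Estimated counts were rounded and fitted in edgeR 4.0.16 under R 4.3.3 (quasi-likelihood test, TMM scaling, terms for line and knockdown, Benjamini-Hochberg adjusted p under 0.05), after a script test on simulated data. Cell line served as the block. No condition was replicated, so p-values of the common test treat the lines as replicates of the knockdown. Those of the line test treat the control and knockdown libraries of a line as its replicates. The main fit had infinite prior degrees of freedom, so its SE and p-values use a spread pooled over genes. They do not measure how far a gene's own libraries disagree. Uqcrc1 had an SE of 0.18 for the common change, with changes of 0.605 in CT26 and -0.628 in MC38. Nothing says that the libraries of a line came from separate experiments. Fold changes added 1 count to TMM-scaled counts. FPKM was used for levels. DESeq2 1.42.0 and limma 3.58.1 served as alternatives. Canonical transcripts of all 106 members were searched in GRCm39 in windows of 50 bases. Python 3.11.15, numpy 2.4.6, pandas 2.3.3, scipy 1.17.1 and matplotlib 3.10.9 were used.

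By rule the text names the mitochondrial genes, the 2 nuclear subunits of each complex with the highest mean FPKM, members called in common or past a fold threshold, the 6 with the largest called line difference in each direction, genes with tissue forms, Aurka, and leading or called genes of related lists. Other members with values (such as Ndufb10 in CT26, Ndufaf2, Ndufaf5, Ndufv1, Ndufs1, Sdhb, Sdhc, Uqcrc2, Uqcrfs1, Cox5b, Cox7b, Atp5k, Atp5c1, Atp5d and Atp5e) were picked after their values were seen. Members and lists were chosen with earlier results of these data known.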

Additional observations from a re-analysis of the deposited data

Results flagged for a closer look

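The median change of the respiratory chain genes had opposite signs in the lines, and the difference was not tested, since each line had 1 pair of libraries. MC38 minus CT26, the median over members differed by 0.147 (CT26 -0.116, MC38 0.031), and that over nuclear members by 0.169 (CT26 -0.123, MC38 0.046). The median of complex I differed by 0.161, of complex III by 0.167 and of complex V by 0.168. For Uqcrc1 the log2 change in MC38 was lower than in CT26 (difference -1.232, from 0.605 in CT26 and -0.628 in MC38). For Ndufaf3, which had 21 and 37 fragments in CT26, the difference was -1.071 (CT26 0.908, MC38 -0.163).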

How the results depend on the processing

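The CT26 median moved to -0.068 and -0.069 on FPKM with pseudocounts of 1 and 0.1, and lay between -0.139 and -0.109 under the other alternatives. The MC38 median (0.031) lay between 0.003, among members with under 5% of windows elsewhere, and 0.058, with own locus only. The median of mitochondrial minus nuclear members was 0.090 in CT26 (0.041 and 0.042 on FPKM, up to 0.130 with a filter at 50 counts), -0.060 in MC38 (-0.017 with under 5% of windows elsewhere, at the lowest -0.066) and -0.314 between the lines, where it was -0.888 with under 5% of windows elsewhere, -0.464 with own locus only and -0.226 with subunits only. With under 5% of windows elsewhere the mitochondrial side held only mt-Cytb, mt-Nd1 and mt-Nd6. Total count scaling moved the median line difference from -0.007 to 0.284, when the median of all genes moved to 0.297, and other settings gave -0.176 to 0.134. Members past the fold thresholds in CT26 went from 2 to 1 (total count scaling, a filter at 50 counts, FPKM with pseudocount 0.1, own locus only, and subunits only), 0 (FPKM with pseudocount 1) and 6 (no filter), and in MC38 from 0 to 3 (no filter) and 1 (both FPKM settings). The 1 call of the common test became 0 with total count scaling, DESeq2 size factors, no filter, a mean of at least 50 counts, the DESeq2 Wald test, limma on FPKM, and members with their own locus or with under 5% of windows elsewhere. Without the line as a block it was also 0, so the pairing by line bears on this call. The 66 calls for line became 36 among members with their own locus and 41 among those with under 5% of windows elsewhere, as fewer genes entered, and 59 without the block. The 2 sets by windows elsewhere and by subunits were added after the data were seen. Leaving out a library would leave a condition empty and was not run. Genes with few fragments, such as Ndufaf3 and Atp5s, are limited by depth.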
